A study of Mus musculus with 22 samples.

Results

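Nod1 and 7 genes that lie around it on mouse chromosome 6 (Ggct, Znrf2, Scrn1, Fkbp14, Plekha8, Wipf3 and Crhr2) were followed through 22 expression arrays of mouse embryonic germ cell (EG) lines and embryonic stem cell (ES) lines. These 8 genes are part of 19938 genes measured, and each is covered by 1 probe set. The set was chosen by the measured levels of Nod1 and Ggct, which were lower in EG than in ES lines, and the other 6 were added for their place on the chromosome. The differences between EG and ES lines are therefore given below as a description, without a test for the 8 genes, and a count of genes past the threshold that holds Nod1 or Ggct supports nothing about them. The questions asked of them were whether the difference was local to the locus and whether it followed the labelled batch or single lines.

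EG lines are pluripotent lines derived from germ cell precursors, here from embryos of embryonic day 8.5, and ES lines are the usual pluripotent lines of the early embryo. The arrays fall into EG lines derived directly in 2i medium (EG 2i, n = 4), EG lines kept for 48 hours in serum before 2i (EG 2is, n = 4), EG lines in fetal calf serum (EG FCS, n = 4), ES lines in 2i (ES 2i, n = 5) and ES lines in serum (ES FCS, n = 5). FCS cultures held serum and leukaemia inhibitory factor (LIF) on mouse embryonic fibroblast feeders. 2i cultures held LIF with PD0325901, which inhibits MEK, and CHIR99021, which inhibits GSK3, in N2B27 medium on laminin, so medium and feeder layer changed together. The strain label of all 22 samples is 129SvEv x Oct4-delta-PE-GFP transgenic, of mixed background, whereas the series' design text calls the embryos genetically identical. EG 2i, EG 2is and EG FCS held 3, 2 and 1 female lines, and each ES group held 2. The cell type label reads EGCs for all 22 samples, including the 10 whose titles and source names say ES, and the titles were followed here. All 12 EG arrays and 4 ES arrays carry the label batch 1, and 6 ES arrays carry batch 2, with 2 batch 1 and 3 batch 2 arrays in each ES culture. The labels do not say if equally numbered ES samples in 2i and FCS are 1 line, and nothing beyond the sample names states separate cultures, so a p-value measures only how these samples spread. Same-numbered ES samples carry the same sex and batch labels in 5 of 5 cases, and a line number below names a sample within its group.

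Nod1 encodes a cytosolic receptor of the NOD-like family that recognises a fragment of bacterial peptidoglycan and signals through the kinase RIPK2 to NF-kappaB and MAP kinases. It is best known from epithelial and innate immune cells. Ggct encodes gamma-glutamylcyclotransferase, which releases 5-oxoproline from gamma-glutamyl amino acids in the turnover of glutathione. The other members have unrelated roles in ubiquitination, secretion, protein folding, lipid transport, the actin skeleton and hormone reception.

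In the gene order of the reference table, Wipf3, Scrn1, Fkbp14, Plekha8, Mturn and Znrf2 precede Nod1, and Ggct, Gars and Crhr2 follow it. Promoter windows of Nod1, Ggct, the next gene Znrf2 and the 3 members called for a culture change are shown, each with 250 bases before and 50 after an annotated start, 5′ to 3′ on the gene's strand, from RefSeq on GRCm38.p6. All 8 members had such a window. Capitals mark CG dinucleotides, the main sites of DNA methylation in mouse cells. Nod1 has a pair of windows on the minus strand, at chr6:54972563-54972862 and chr6:54971612-54971911, and Ggct has 1 on the minus strand at chr6:54992818-54993117. Znrf2, the next gene on the other side of Nod1, has 1 on the plus strand at chr6:54816666-54816965. The windows of Scrn1, Fkbp14 and Plekha8 lie at chr6:54566333-54566632 on the minus strand, chr6:54593125-54593424 on the minus strand and chr6:54594861-54595160 on the plus strand.
Nod1, upstream start: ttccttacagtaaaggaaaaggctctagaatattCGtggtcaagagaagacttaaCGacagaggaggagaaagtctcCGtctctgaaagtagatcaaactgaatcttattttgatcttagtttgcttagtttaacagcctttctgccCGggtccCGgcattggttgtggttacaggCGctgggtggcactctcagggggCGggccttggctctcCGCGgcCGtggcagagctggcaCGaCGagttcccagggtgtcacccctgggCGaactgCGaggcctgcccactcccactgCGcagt
Nod1, downstream start: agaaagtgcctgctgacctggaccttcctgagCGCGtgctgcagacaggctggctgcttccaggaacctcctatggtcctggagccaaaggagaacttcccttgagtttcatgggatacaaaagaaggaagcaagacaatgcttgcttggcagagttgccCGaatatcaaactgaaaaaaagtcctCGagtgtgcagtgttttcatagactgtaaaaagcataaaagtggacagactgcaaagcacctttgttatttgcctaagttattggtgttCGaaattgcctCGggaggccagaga
Ggct: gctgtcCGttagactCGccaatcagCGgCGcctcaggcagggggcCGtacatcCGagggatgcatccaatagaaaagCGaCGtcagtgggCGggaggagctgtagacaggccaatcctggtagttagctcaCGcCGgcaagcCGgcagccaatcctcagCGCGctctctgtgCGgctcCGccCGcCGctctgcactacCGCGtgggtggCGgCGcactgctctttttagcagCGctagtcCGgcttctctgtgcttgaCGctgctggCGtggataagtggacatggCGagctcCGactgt
Znrf2: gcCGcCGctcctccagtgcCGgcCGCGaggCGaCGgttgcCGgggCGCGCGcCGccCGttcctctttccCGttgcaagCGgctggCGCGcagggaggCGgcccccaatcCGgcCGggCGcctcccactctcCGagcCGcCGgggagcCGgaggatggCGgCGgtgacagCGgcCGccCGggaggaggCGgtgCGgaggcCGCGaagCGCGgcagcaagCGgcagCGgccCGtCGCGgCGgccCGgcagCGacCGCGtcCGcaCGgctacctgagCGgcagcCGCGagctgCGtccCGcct
Scrn1: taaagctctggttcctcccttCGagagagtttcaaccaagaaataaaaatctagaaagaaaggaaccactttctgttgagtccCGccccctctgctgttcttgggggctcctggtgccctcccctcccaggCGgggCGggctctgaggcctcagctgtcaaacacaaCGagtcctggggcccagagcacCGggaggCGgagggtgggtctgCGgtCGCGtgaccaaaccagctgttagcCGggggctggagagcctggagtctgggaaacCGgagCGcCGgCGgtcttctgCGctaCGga
Fkbp14: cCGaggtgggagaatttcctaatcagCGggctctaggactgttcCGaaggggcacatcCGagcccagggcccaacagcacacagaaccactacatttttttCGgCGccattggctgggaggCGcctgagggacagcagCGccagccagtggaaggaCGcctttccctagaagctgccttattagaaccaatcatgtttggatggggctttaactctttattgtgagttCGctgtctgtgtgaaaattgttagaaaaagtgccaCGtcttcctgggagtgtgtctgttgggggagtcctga
Plekha8: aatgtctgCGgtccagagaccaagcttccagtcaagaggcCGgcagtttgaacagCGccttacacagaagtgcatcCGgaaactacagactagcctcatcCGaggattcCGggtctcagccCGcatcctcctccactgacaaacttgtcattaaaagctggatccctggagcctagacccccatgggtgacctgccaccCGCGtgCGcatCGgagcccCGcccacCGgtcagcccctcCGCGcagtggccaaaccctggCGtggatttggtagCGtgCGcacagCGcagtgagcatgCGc

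The upstream Nod1 window held 15 CG, and 34.6% of all 32851 windows of that length held at least as many. The downstream Nod1 window held 6 CG, close to the median of 7 over all windows. Ggct held 28 CG, a count reached by 14.2% of windows, and Znrf2 held 53, reached by 0.451%. The letters CCAAT, searched on both strands, occurred 4 times in the Ggct window, against 1 time in each Nod1 window. At least 4 were present in 1.06% of all windows and at least 1 in 37.4%. GGGCGG on either strand occurred 2 times in Ggct and in Znrf2, 1 time in the upstream Nod1 window and not in the downstream one, and 35.7% of windows held it. TATAAA on either strand was in none of the 7 windows shown and in 13.6% of all windows. The Fkbp14 window shown held 11 CG and 2 CCAAT, the Plekha8 window shown held 20 CG and 1 GGGCGG, and the Scrn1 window held 17 CG and 2 GGGCGG. Fkbp14 and Plekha8 each have a further window that is not shown, at chr6:54597295-54597594 with 3 CG and at chr6:54602897-54603196 with 1 CG. The starts of the Fkbp14 and Plekha8 windows shown lie 1.94 kb apart on opposite strands, the Nod1 starts 951 bases apart, and the Ggct start 20.3 kb from the upstream Nod1 start. A match of letters is a description of the window and no measured site.

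The values are log2 expression after RMA, an array summary that corrects background, normalizes arrays by quantiles and combines the probes of a probe set. They ran from 3.63 to 13.9, with array medians from 5.54 to 5.62, and arrays within a group had correlations of 0.982 to 0.998. As a mark of array background, the Y-linked gene Eif2s3y reached at most 4.88 in female lines, against at least 7.55 in male lines, and 23.7% of genes had a mean below 4.88. The defining markers of pluripotent cells (8 of 8 measured) averaged 10.6 to 11.1 on every array. Differences below are from 1 limma fit over all genes with group, batch and sex as terms, a called gene has a Benjamini-Hochberg adjusted p under 0.05 over all 19938 genes, and the number of arrays limits the precision.

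Nod1 was near array background in every EG group and above it in every ES line. Its level was 4.37, 4.53, 4.74 and 4.38 in EG 2i lines 1 to 4, and 4.38, 4.40, 4.90 and 4.58 in EG 2is lines. In EG FCS lines it was 4.46, 4.57, 4.39 and 4.13. In ES 2i lines it was 5.33, 5.82 and 5.96 in batch 2 and 7.41 and 6.66 in batch 1. ES FCS lines had 5.47, 5.35 and 5.41 in batch 2 and 6.21 and 6.74 in batch 1. All 12 EG arrays lay below all 10 ES arrays, and 11 of the 12 lay below 4.88, whereas none of the 10 ES arrays did. The closest pair was EG 2is line 3 at 4.90 and ES 2i line 3 at 5.33, a gap of 0.43. The mean was 4.50 ± 0.17 in EG 2i, 4.56 ± 0.24 in EG 2is and 4.38 ± 0.19 in EG FCS lines (SD, n = 4 each), against 6.24 ± 0.81 in ES 2i and 5.84 ± 0.61 in ES FCS lines (SD, n = 5 each). From the lowest, the order was EG FCS, EG 2i, EG 2is, ES FCS and ES 2i, and neighbours within the EG groups and within the ES groups differed by less than their spread.

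In the fit, which compares EG lines with ES lines at the level of batch 1, Nod1 was lower in EG 2i than in ES 2i, with a log2 difference of -2.47 (SE 0.19). The log2 difference was -2.39 (SE 0.19) for EG 2is against ES 2i and -2.15 (SE 0.19) for EG FCS against ES FCS. Since nearly all EG values lie at background, the fold can only be given as a bound, from group means with each EG array below the mark of 4.88 counted at it. Nod1 was at least 2.56-fold lower in EG 2i, 2.55-fold lower in EG 2is and 1.94-fold lower in EG FCS than in all arrays of the matched ES group. Against the ES arrays of batch 2 alone these bounds were 1.77-fold, 1.76-fold and 1.44-fold. Leaving out each array in turn gave -2.61 to -2.21 for EG 2i, -2.54 to -2.15 for EG 2is and -2.36 to -2.02 for EG FCS. Nod1 was the single gene of 19938 (0.00502%) whose EG arrays all lay below the ES arrays, and 0 genes had all EG arrays above. Nod1 was chosen for lower levels in EG lines, so this separation describes the same values and is no further support. In these bulk samples, fewer cells of a kind that express a gene and less of its RNA per cell cannot be told apart.

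The size of the Nod1 difference depended on the batch of the ES lines, and its direction did not. EG 2i lines lay below the ES 2i arrays of either batch, with a mean difference of -1.20 to the 3 arrays of batch 2 and of -2.53 to the 2 of batch 1. For EG 2is these differences were -1.14 and -2.47, and for EG FCS against ES FCS they were -1.03 and -2.09. Fitted on ES arrays of batch 2 alone, a choice made after seeing the data, the 3 log2 differences were -1.22, -1.15 and -1.02. No EG array carries batch 2, so within batch 2 EG and ES lines could not be compared, whereas within batch 1 the arrays of both kinds gave log2 differences of -2.58, -2.47 and -2.04.

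Among ES lines, Nod1 was lower in batch 2 than in batch 1. It averaged 5.56 ± 0.27 (SD, n = 6) in batch 2, with a highest value of 5.96, and 6.76 ± 0.50 (SD, n = 4) in batch 1, with a lowest value of 6.21. No array of batch 2 reached any of batch 1, a separation that 0.0853% of genes showed in that direction. The fitted log2 difference was -1.19 (SE 0.16, limma adjusted p = 0.00699), with mean differences of -1.33 in 2i and -1.06 in FCS. Nod1 was the single gene called of 19938 (0.00502%), and 522 had an unadjusted p under 0.05. The same 4 ES arrays of batch 1 enter the EG against ES differences that chose Nod1, so this call is not independent of that choice. With the replicate number as a block the call was lost, with a log2 difference of -1.33 and a limma adjusted p of 0.496. That block joined EG and ES arrays of the same number. Among ES arrays batch goes with number, so the blocked difference is told from number only through EG arrays. It cannot show whether ES lines account for the call. If equal numbers mark 1 line, which the labels do not say, the 6 and 4 arrays come from 3 and 2 lines. Batch 2 holds the samples numbered 3 to 5 and batch 1 those numbered 1 and 2, so batch and line cannot be told apart. Without ES FCS line 2 the log2 difference was -1.09 with an adjusted p of 0.0643.

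**Figure D1:**
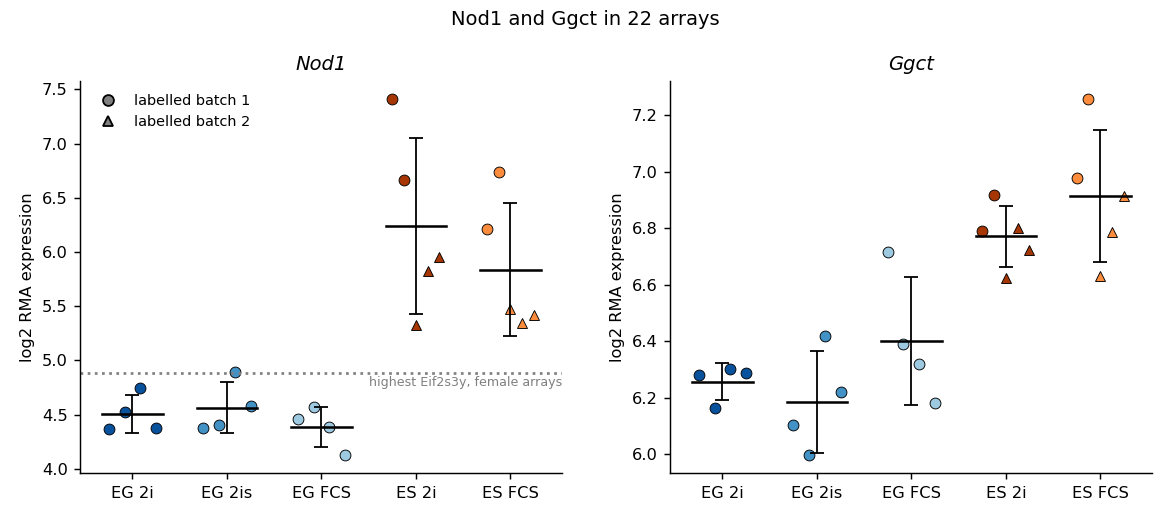
Log2 RMA expression of Nod1 (left) and Ggct (right) on each of the 22 arrays by group, with circles for labelled batch 1, triangles for labelled batch 2, and bars for the group mean ± SD (n = 4 for each EG group, n = 5 for each ES group). The dotted line is the highest female Eif2s3y level, 4.88. All Nod1 values of EG lines lie below all of ES lines, its ES triangles lie below its ES circles, and Ggct of EG FCS line 1 (6.72) lies within the ES range.

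Cell type markers were set beside Nod1 because the gene is known from immune and epithelial cells. The mean over 8 macrophage and other blood cell markers (Ptprc, Cd68, Adgre1, Csf1r, Cd14, Itgam, Lyz2 and Tyrobp) was 5.12 to 5.33 on EG arrays and 5.12 to 5.40 on ES arrays, and 0 of the 8 were called in any of the 3 EG against ES comparisons. By group, 2 to 4 of these 8 markers lay below 4.88 on every array. Feeder fibroblast markers (18 of 19 measured) averaged 5.42 to 5.58 on EG arrays in 2i or 2is, against 5.36 to 5.60 on ES 2i arrays, and 6.12 to 6.94 on EG FCS arrays, against 6.13 to 6.85 on ES FCS arrays. Primitive endoderm markers (8 of 8) averaged 5.93 to 6.64 on EG FCS arrays, against 5.50 to 5.80 on ES FCS arrays, with 0 of 8 called. Within ES FCS, the primitive endoderm list averaged 5.50 to 5.56 on batch 2 arrays and 5.80 on both batch 1 arrays. Within ES 2i, the feeder list averaged 5.36 to 5.46 on batch 2 arrays and 5.60 on both batch 1 arrays. Across both ES cultures 0 of the 8 and 0 of the 18 markers were called between batches, where 0.00502% of all genes were. Primordial germ cell markers (8 of 8) averaged 7.42 to 7.56 on EG 2i arrays, against 7.18 to 7.38 on ES 2i arrays, without overlap. The germ cell list overlapped in the other comparisons, at 7.31 to 7.49 on EG 2is arrays and 6.77 to 7.18 on EG FCS arrays, against 6.95 to 7.42 on ES FCS arrays. Trophoblast markers (8 of 8), which include the epithelial keratin genes Krt7, Krt8 and Krt18, averaged 5.49 to 5.88 on EG arrays in 2i or 2is, against 5.27 to 6.36 on ES 2i arrays. In FCS the trophoblast list averaged 5.87 to 6.39 on EG arrays, against 6.13 to 6.71 on ES arrays. In both lists 0 of 8 were called in the 3 EG against ES comparisons and between ES batches. Beside these counts, 3.72%, 0.0451% and 0.01% of all genes were called for EG 2i, EG 2is and EG FCS against ES lines. At such shares 0 calls in a short list cannot show that its markers did not differ. The part of any of these lists in the Nod1 values was not tested.

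Ggct was also lower in EG lines, by a smaller amount and from a level well above background. EG 2i lines had 6.28, 6.16, 6.30 and 6.29, EG 2is lines had 6.10, 5.996, 6.42 and 6.22, and EG FCS lines had 6.72, 6.39, 6.32 and 6.18. ES 2i lines had 6.62, 6.80 and 6.72 in batch 2 and 6.79 and 6.92 in batch 1. ES FCS lines had 6.63, 6.79 and 6.91 in batch 2 and 6.98 and 7.26 in batch 1. All EG 2i and EG 2is values lay below all ES 2i values, whereas EG FCS line 1 (6.72) lay above ES FCS line 3 (6.63). The log2 differences were -0.66 (SE 0.12) for EG 2i, -0.73 (SE 0.12) for EG 2is and -0.65 (SE 0.12) for EG FCS, or 1.58-fold, 1.66-fold and 1.57-fold lower levels. Mean differences to ES arrays of batch 2 were -0.46, -0.53 and -0.38, and to those of batch 1 they were -0.60, -0.67 and -0.72. Between ES batches, Ggct differed by -0.24 (SE 0.10, limma adjusted p = 1.0), and the arrays of the batches overlapped.

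Nod1 and Ggct were the values that chose the set, and in the fit they were the 2 of 8 members past the threshold for EG 2i against ES 2i, where 3.72% of all genes were. The same 2 were past it for EG 2is against ES 2i, where 0.0451% of all genes were, and Nod1 alone for EG FCS against ES FCS, where 0.01% were. Without overlap of arrays, 5.87%, 2.09% and 1.27% of all genes were lower in EG 2i, EG 2is and EG FCS than in their ES group, and 1.2% were higher in EG 2is. These shares give the background, and nothing is read from the members' counts, because the same contrast chose them.

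For the other 6 members, the values of EG and ES arrays overlapped. Znrf2, a RING-type ubiquitin ligase and the nearest measured gene before Nod1, was at 8.57 to 9.02 on EG arrays (median 8.92) and 8.61 to 9.41 on ES arrays (median 8.85), and its EG against ES log2 differences were -0.05, -0.04 and -0.10 in 2i, 2is and FCS (SE 0.13 each). Crhr2, the receptor of the urocortin hormones, was slightly higher in EG lines, at 5.00 to 5.60 (median 5.20) against 4.85 to 5.15 (median 5.03) in ES lines. Its log2 differences were 0.27 in 2i, 0.12 in 2is and 0.16 in FCS (SE 0.10 each), and all 4 EG 2is arrays, 3 of 4 EG 2i arrays and 1 of 4 EG FCS arrays lay above the highest ES array, 5.15. Fkbp14, a prolyl isomerase of the endoplasmic reticulum that assists collagen folding, differed by -0.32 in 2i, -0.12 in 2is and 0.11 in FCS (SE 0.20 to 0.21). Scrn1, a cytosolic protein named for its part in mast cell exocytosis, differed by 0.08, -0.04 and 0.17, with SE 0.19 to 0.20. Plekha8, which transfers glycosphingolipids at the Golgi, differed by 0.05, -0.10 and 0.08 (SE 0.11 each). Wipf3, an actin regulator of the WIP family, was below 4.88 on all 22 arrays, from 4.48 to 4.74 in EG lines and 4.54 to 4.77 in ES lines, so its differences of -0.02, 0.03 and -0.07 are between values at background.

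**Figure D2:**
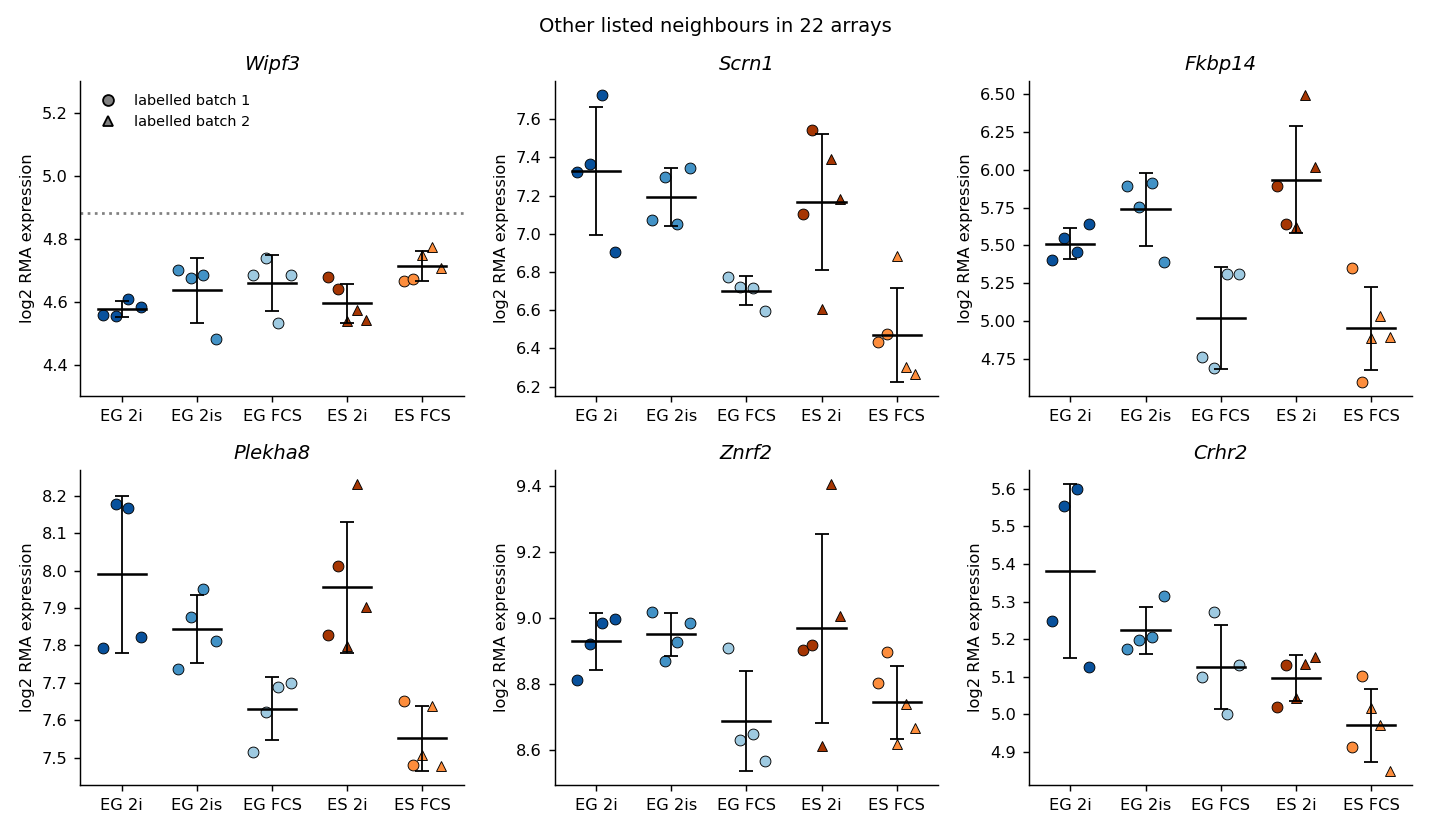
Log2 RMA expression of Wipf3, Scrn1, Fkbp14, Plekha8, Znrf2 and Crhr2 on the 22 arrays by group, with circles for labelled batch 1, triangles for labelled batch 2, and bars for the group mean ± SD. The dotted line in the Wipf3 panel is the highest female Eif2s3y level, 4.88. EG and ES values overlap in each panel, and Scrn1, Fkbp14 and Plekha8 lie higher in the 2i groups than in the FCS groups.

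Around Nod1, 30 measured genes were examined, 15 on either side, and the 7 other members are among them. Of the 23 that are no members, 0 were called in the EG against ES comparisons (1 in EG 2i against ES 2i when ES 2i line 3 or the batch term was left out). Over all genes, 3.72%, 0.0451% and 0.01% were called for EG 2i, EG 2is and EG FCS against ES lines. At these shares, 0 calls among 23 genes cannot show that the neighbours did not differ. The smallest adjusted p-values were 0.0645 in 2i, 0.132 in 2is and 0.813 in FCS, all for Cpvl, a serine carboxypeptidase gene 10 places before Nod1. The log2 differences of Cpvl were -0.31, -0.40 and -0.33 (SE 0.09 each), with overlapping arrays. Without Nod1 and Ggct, log2 differences of the neighbourhood ran from -0.32 to 0.27 in 2i, from -0.40 to 0.12 in 2is and from -0.33 to 0.17 in FCS. Their medians were -0.01, -0.07 and -0.04, beside medians over all genes of 0.00, 0.00 and 0.01. Of these 29 genes, 15 in 2i, 22 in 2is and 20 in FCS had a log2 difference below 0. Next to Ggct, Gars, the glycyl-tRNA synthetase, had log2 differences of -0.18 (SE 0.06, limma adjusted p = 0.086), -0.11 (adjusted p = 0.582) and -0.11 (adjusted p = 0.999), and its arrays did not overlap in 2i and 2is. Mturn, between Plekha8 and Znrf2, had -0.03, -0.21 and -0.15, with adjusted p-values of 0.949, 0.718 and 0.999. Past Crhr2, the methyltransferase gene Inmt, the deubiquitinase gene Mindy4 and the water channel gene Aqp1 lay between -0.15 and 0.04.

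**Figure D3:**
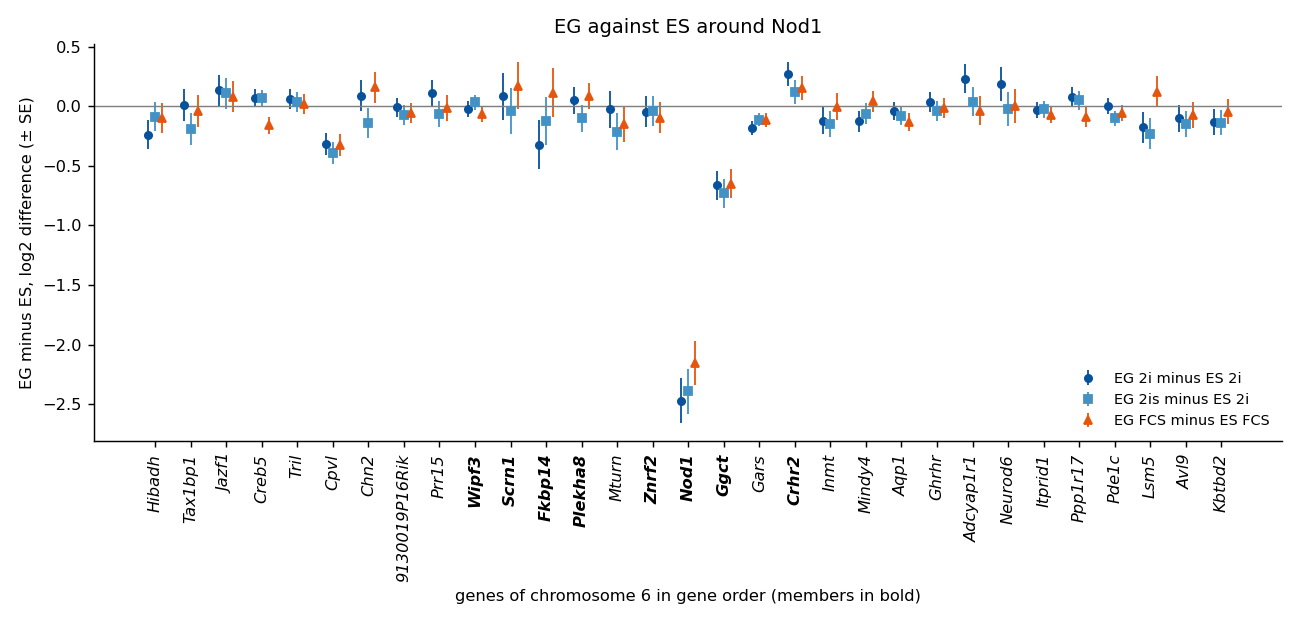
Fitted log2 differences, EG minus ES, with SE, for Nod1 and 30 genes around it in the gene order of chromosome 6 (evenly spaced places, not distances; members in bold), for EG 2i against ES 2i (circles), EG 2is against ES 2i (squares) and EG FCS against ES FCS (triangles). Nod1 lies at -2.47 to -2.15 and Ggct at -0.73 to -0.65, and the other genes lie between -0.40 and 0.27.

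Over the whole chromosome, 36 of 1099 measured genes (3.28%) were called for EG 2i against ES 2i, against 3.72% of all genes. For EG 2is against ES 2i, 9 genes were called in all (1 to 43 when each array was left out). Of these, 4 lie on chromosome 6, which holds 5.54% of the measured genes, and Nod1 and Ggct, which chose the set, are among the 4. The others were Apobec1, a cytidine deaminase, with -0.76 (SE 0.11, limma adjusted p = 0.0141), and the complement protease gene C1s1 with -0.70 (SE 0.12, adjusted p = 0.0254). They lie 457 and 485 places from Nod1 in the order of measured genes. For EG FCS against ES FCS, the single gene called beside Nod1 was the guanylate-binding protein gene Gbp2b of chromosome 3, with -0.81 (SE 0.11, adjusted p = 0.0037).

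**Figure D4:**
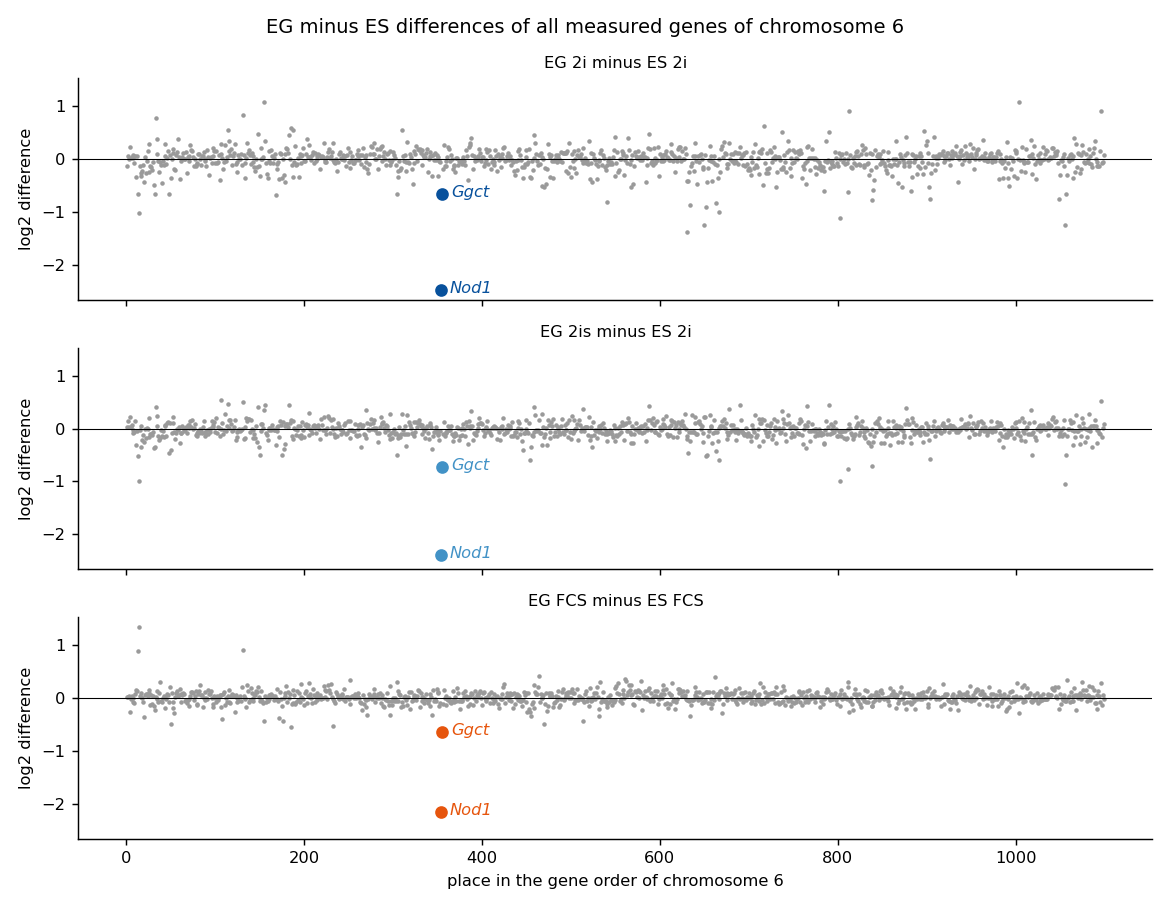
Fitted log2 differences, EG minus ES, of all 1099 measured genes of chromosome 6 by their place in the gene order, with 1 panel each for EG 2i against ES 2i, EG 2is against ES 2i and EG FCS against ES FCS. Nod1 and Ggct, coloured, are neighbours, and Nod1 lies below every other gene of the chromosome in each panel.

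Across the 22 arrays, the gene whose level followed Nod1 most closely was its neighbour Ggct (Pearson r 0.83, the highest of 15211 genes with a mean of 4.88 or more). The next were Mrpl35 (0.76), a mitochondrial ribosomal protein gene also on chromosome 6 but 101 places away, the BMP receptor gene Bmpr1a (0.72), Chmp4b (0.70), Tle2 (0.69) and Olfr1038-ps (0.69). The lowest were Olfr460 (-0.81), Olfr418 (-0.75) and Mir338 (-0.73). Of the other members above background, Znrf2 reached 0.18, Fkbp14 0.10, Plekha8 -0.02, Scrn1 -0.08 and Crhr2 -0.40. The pattern of Ggct was most like that of Reep2 (0.91), Nod1 (0.83) and Cdca4 (0.78). These coefficients describe 22 arrays that share groups, batches and RMA normalization, and Nod1 and Ggct were both chosen for lower levels in EG lines.

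Within EG lines the correlation of Nod1 with Ggct did not pass a test. Pearson r was 0.31 (n = 12, permutation p = 0.315, adjusted p = 0.631). Spearman rho was 0.40 (permutation p = 0.201, adjusted p = 0.402), and r was 0.23 without the 2 arrays farthest in Nod1. Nod1 lay below the mark of array background on 11 of these 12 EG arrays. The test within EG lines therefore cannot show whether Nod1 and Ggct vary together there. Within ES arrays of batch 2, r was 0.08 (n = 6, exact permutation p = 0.839, adjusted p = 0.839) and rho 0.26 (exact permutation p = 0.658, adjusted p = 0.658), with r 0.02 without the 2 farthest. These 6 arrays are the samples numbered 3 to 5 in each of 2 cultures, and the labels do not say if equal numbers are 1 line. With so few arrays the test cannot show whether Nod1 and Ggct vary together among ES lines. The adjusted values cover these 2 sets, and the 4 ES arrays of batch 1 were too few for a value.

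The culture comparisons did not enter the choice of the set and were tested. Nod1 did not pass the threshold for any culture change. In EG lines it differed by 0.08 (SE 0.18, limma adjusted p = 0.796, 95% interval -0.29 to 0.46) for 2i against FCS and by 0.16 (SE 0.17, adjusted p = 0.567) for 2is against FCS. Nod1 lay below 4.88 on 4 of 4 EG 2i, 3 of 4 EG 2is and 4 of 4 EG FCS arrays. These EG tests therefore cannot show whether Nod1 responded to culture. In ES lines it averaged 6.24 in 2i and 5.84 in FCS, a log2 difference of 0.40 (SE 0.15, adjusted p = 0.0523, 95% interval 0.08 to 0.72). That adjusted p was 0.00451 to 0.208 when each array was left out in turn, and 0.0438 with genes below background removed. Ggct differed by -0.16 (SE 0.12, adjusted p = 0.372) for EG 2i, -0.22 (SE 0.11, adjusted p = 0.159) for EG 2is and -0.14 (SE 0.10, adjusted p = 0.315) for ES 2i, each against FCS.

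Scrn1, Fkbp14 and Plekha8 rose in ES 2i and in EG 2i against FCS, and Fkbp14 also rose in EG 2is, where Scrn1 and Plekha8 did not pass the threshold. Each of the 3 EG 2i calls was lost when some single arrays were left out, as given for each gene. Fkbp14 was at 5.40, 5.55, 5.46 and 5.64 in EG 2i and 5.89, 5.75, 5.91 and 5.39 in EG 2is lines, against 4.77, 4.69, 5.31 and 5.31 in EG FCS lines. In ES lines it was at 5.89, 5.64, 5.62, 6.49 and 6.02 in 2i, against 5.35, 4.60, 4.89, 5.04 and 4.89 in FCS. In both kinds of line every 2i or 2is array lay above every FCS array. The share of all genes whose arrays separate between cultures was not counted, so this separation, and that of Scrn1 and Plekha8 below, has no background beside it. The log2 differences against FCS were 0.54 (SE 0.20, limma adjusted p = 0.0495) for EG 2i, 0.74 (SE 0.19, adjusted p = 0.00579) for EG 2is and 0.98 (SE 0.17, adjusted p = 0.000133) for ES 2i. The EG 2i call was lost in 15 of 22 fits that left out 1 array, with adjusted p up to 0.191, and in 4 other fits, with adjusted p of 0.0531 to 0.0819. Within batch 1 the ES 2i difference was 0.79 with an adjusted p of 0.0585, and 2 EG FCS arrays and 1 ES FCS array lay below 4.88.

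Scrn1 was at 7.32, 7.37, 7.72 and 6.90 in EG 2i lines and 7.07, 7.30, 7.05 and 7.35 in EG 2is lines, against 6.77, 6.72, 6.72 and 6.59 in EG FCS lines. In ES lines it was at 7.10, 7.55, 6.61, 7.39 and 7.18 in 2i, against 6.43, 6.47, 6.88, 6.30 and 6.27 in FCS. All EG 2i and 2is values lay above the EG FCS values, whereas the lowest ES 2i value, 6.61, lay below the highest ES FCS value, 6.88. Both of these are samples numbered 3, and the labels do not say if they are 1 line. The log2 differences were 0.61 (SE 0.19, limma adjusted p = 0.0223) for EG 2i, 0.48 (SE 0.18, adjusted p = 0.057) for EG 2is and 0.69 (SE 0.16, adjusted p = 0.00197) for ES 2i. The EG 2i call was lost without EG FCS line 1 (adjusted p = 0.0565) or EG 2i line 3 (adjusted p = 0.0699).

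Plekha8 was at 7.79, 8.18, 8.17 and 7.82 in EG 2i lines and 7.74, 7.87, 7.95 and 7.81 in EG 2is lines, against 7.51, 7.62, 7.69 and 7.70 in EG FCS lines. In ES lines it was at 7.83, 8.01, 7.80, 8.23 and 7.90 in 2i, against 7.65, 7.48, 7.51, 7.64 and 7.48 in FCS. The 2i and FCS arrays did not overlap in either kind of line, a separation whose share over all genes was not counted. The log2 differences were 0.37 (SE 0.11, limma adjusted p = 0.0151) for EG 2i, 0.22 (SE 0.10, adjusted p = 0.137) for EG 2is and 0.40 (SE 0.09, adjusted p = 0.00169) for ES 2i, where within batch 1 it had an adjusted p of 0.12. The EG 2i call was lost without EG FCS line 1 (adjusted p = 0.0854).

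Znrf2 had log2 differences of 0.27, 0.28 and 0.22 for EG 2i, EG 2is and ES 2i against FCS, with adjusted p-values of 0.115, 0.092 and 0.115. Crhr2 had 0.24, 0.09 and 0.13, with adjusted p-values of 0.0794, 0.551 and 0.285. In all, 3 of 8 members were called higher for EG 2i against FCS, where 23.9% of all genes were called and 11.4% were higher. For EG 2is it was 1 of 8, against 25.6% called and 12.7% higher, and for ES lines 3 of 8, against 31.6% called and 16.6% higher. EG 2i and EG 2is did not separate any member or any gene at the threshold (0.0% called), though 2116 genes had an unadjusted limma p under 0.05.

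**Figure D5:**
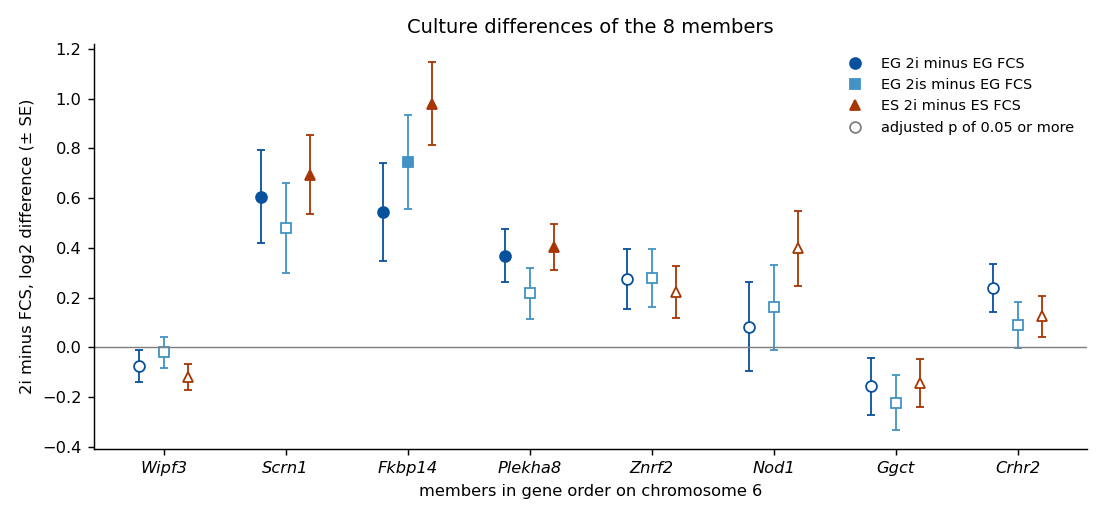
Fitted log2 differences with SE of the 8 members, 2i or 2is minus FCS, in gene order, for EG 2i (circles), EG 2is (squares) and ES 2i (triangles). Filled symbols have a limma adjusted p under 0.05, and these are Scrn1, Fkbp14 and Plekha8 above 0.

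The EG 2i response minus the ES 2i response was tested directly, and 0 of 8 members passed, against 1.44% of all genes. It was -0.32 (SE 0.23, limma adjusted p = 0.556) for Nod1, -0.01 (SE 0.15, adjusted p = 0.981) for Ggct and -0.43 (SE 0.26, adjusted p = 0.436) for Fkbp14. Their 95% intervals, -0.81 to 0.18, -0.33 to 0.30 and -0.97 to 0.10, allow differences of appreciable size. For Nod1 the EG response is taken between arrays at background, so its value cannot show whether the responses differ.

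Nearby genes that are no members also changed with culture. Gars rose by 0.34, 0.41 and 0.41 for EG 2i, EG 2is and ES 2i against FCS, with limma adjusted p-values of 0.000193, 1.36e-05 and 2.19e-06. Cpvl rose by 0.33, 0.25 and 0.32, and Kbtbd2, a substrate adaptor of a cullin ubiquitin ligase, fell by 0.49, 0.49 and 0.40, all called. Chn2, a Rac GTPase-activating protein gene, was called lower in EG 2is. In ES 2i the transcription factor gene Creb5, Tril and the PACAP receptor gene Adcyap1r1 were called lower and Avl9 higher. That gave 3, 4 and 7 called of 23, beside the shares of all genes above. No difference between EG and ES responses was called for any of the 23 neighbours, where 1.44% of all genes were called. In the culture comparisons, several marker lists also changed. Feeder fibroblast markers moved the other way from the rises of Gars and Cpvl, with 10, 11 and 12 of 18 called lower in EG 2i, EG 2is and ES 2i than in FCS and 0, 0 and 2 called higher. Of 8 primordial germ cell markers, 3 were called higher in each comparison, and 3, 3 and 4 were called lower. Prdm14 rose by 2.17, 2.23 and 1.47, Dazl by 2.69, 2.30 and 1.72 and Kit by 1.96, 2.11 and 1.78. Ddx4 had log2 differences of -1.14, -1.45 and -1.61 and Prdm1 of -0.99, -0.77 and -0.98, all called. Dnd1 was also called lower in each comparison, and Nanos3 in ES 2i alone (-0.53). Of 8 trophoblast markers 0 were called higher and 2, 1 and 3 lower, and the log2 differences of Krt18 were -2.19, -1.97 and -2.16, all called. Of 8 primitive endoderm markers 0, 0 and 1 were called higher and 2, 3 and 1 lower, and that list averaged 5.49 to 5.69 on EG 2i and 2is arrays, against 5.93 to 6.64 on EG FCS arrays. Beside the counts of these 4 marker lists, 23.9%, 25.6% and 31.6% of all genes were called for EG 2i, EG 2is and ES 2i against FCS. The part of these lists in the culture differences was not tested.

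Other genes of the NOD1 pathway were taken from a fixed list. Of 31 measured of 35 listed, 0 were called higher and 2 lower in EG 2i than in ES 2i, beside 3.72% of all genes called. None were called for EG 2is or EG FCS against ES lines, where 0.0451% and 0.01% of all genes were. The median difference of the list was -0.02 in EG 2i, beside 0.00 over all genes. The lower genes were Sugt1, a co-chaperone of NOD-like receptors (-0.48, limma adjusted p = 0.0171), and Birc2, a ubiquitin ligase acting on RIPK2 (-0.37, adjusted p = 0.0462). Nod2, the sister receptor, averaged 4.93 over all arrays, near background, and differed by -0.13 (SE 0.09, adjusted p = 0.505) in 2i.

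With culture, 3 genes of the list were called higher and 4 lower in EG 2i, 4 and 7 in EG 2is, and 8 and 7 in ES 2i, each against FCS. That gave 7, 11 and 15 of 31, beside 23.9%, 25.6% and 31.6% of all genes called. Slc15a1, an oligopeptide transporter that can carry peptidoglycan fragments, rose by 1.94, 2.18 and 0.95, and Erbin, which binds NOD2 in human cells, rose by 0.70, 0.66 and 0.76. Tab2, an adaptor of the kinase TAK1, fell by 0.42, 0.36 and 0.34. Sugt1 fell by 0.48 in EG 2i, and its EG 2i response differed from its ES 2i response by -0.54 (limma adjusted p = 0.0458).

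In the gamma-glutamyl cycle, in which Ggct acts, 17 of 18 listed genes were measured, and 0 were called in any EG against ES comparison. Over all genes, 3.72%, 0.0451% and 0.01% were called for EG 2i, EG 2is and EG FCS. The median difference of the list was -0.04 in EG 2i, beside 0.00 over all genes. With culture, 3 were called higher and 2 lower in EG 2i, 3 and 3 in EG 2is, and 6 and 3 in ES 2i, which is 5, 6 and 9 of 17 beside 23.9%, 25.6% and 31.6% of all genes. Gss, glutathione synthetase, rose by 2.05, 2.19 and 2.25, the leucine aminopeptidase gene Lap3 rose by 0.41, 0.40 and 0.53, and Anpep, aminopeptidase N, fell by 0.69, 0.65 and 0.99.

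Among 15 measured of 17 other NOD-like receptor genes, Nlrp4f was lower in EG 2i than in ES 2i (-0.87, limma adjusted p = 0.0184) and Nlrc5, a regulator of MHC class I genes, was higher (0.30, adjusted p = 0.0496). In that comparison 3.72% of all genes were called. None of the 15 were called for EG 2is or EG FCS against ES lines, where 0.0451% and 0.01% of all genes were. With culture, 1 was called higher and 1 lower in EG 2i, 1 and 2 in EG 2is, and 2 and 1 in ES 2i, or 2, 3 and 3 of 15 beside the same shares of all genes. Nlrp4f rose by 1.46 in ES 2i. The EG 2i response of Nlrp4f differed from its ES 2i response by -1.24 (adjusted p = 0.0174). Of the ligands and partners of Crhr2 (6 of 6 measured), none were called between EG and ES lines, beside 3.72%, 0.0451% and 0.01% of all genes. With culture, 1 of 6, the ligand gene Ucn, was called lower in EG 2i and EG 2is than in EG FCS (-0.26 and -0.27), where 23.9% and 25.6% of all genes were called. Ucn averaged 4.99 over all arrays, near background, with 5 arrays below 4.88. In ES 2i it differed by -0.10 (limma adjusted p = 0.346). Of 12 measured of 14 other FKBP genes, 0 were called between EG and ES lines, beside 3.72%, 0.0451% and 0.01% of all genes. With culture 2 were called higher and 1 lower in EG 2i, 2 and 1 in EG 2is, and 4 and 1 in ES 2i. That is 3, 3 and 5 of 12, beside 23.9%, 25.6% and 31.6% of all genes called. Fkbp15 rose by 0.31, 0.59 and 0.57, and Fkbp1a, the FK506-binding protein that inhibits TGF-beta receptors, fell by 0.61, 0.43 and 0.32.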

How the data were processed

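The authors deposited log2 values, 1 per probe set and array, of RNA from 22 samples on Affymetrix mouse gene arrays. Affymetrix Expression Console, RMA and limma are named in the submitters' processing notes, without versions, and no batch adjustment by the authors is recorded there. The table held 28853 probe sets, of which 21789 had 1 gene symbol, 1621 several and 5443 none in the platform annotation. The probe set with the highest mean was kept per gene, which left out 1851 and gave 19938 genes, and no pair of arrays was identical (0 pairs).

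In 1 fit of all arrays, lmFit and eBayes of limma 3.58.1 (R 4.3.3) were used with group, labelled batch and labelled sex as terms, Benjamini-Hochberg adjustment over all genes and two-sided tests at adjusted p under 0.05. The procedure was tested on simulated data. Correlations of Nod1 and Ggct used exact or 100000-draw permutation tests. The EG against ES contrasts chose the genes and carry no test for them. The members, lists and alternatives were chosen with earlier results of these data known. Named beyond the members were the 6 nearest genes on either side of Nod1, called genes among 30 neighbours, the genes most like Nod1 or Ggct, and up to 3 called genes per list and comparison. Mrpl35's distance and the genes called in few-call comparisons were added after their values were seen. Equal replicate numbers in the 2 ES cultures were not taken to pair samples, since the labels do not say so and deviations of same-numbered arrays correlated at -0.01 to 0.24 in 5 pairs. The Nod1 fold bounds were added after the values were seen. Gene order came from RefSeq's annotation of GRCm38.p6, and the array files name no build, so no array feature is given coordinates. Alternatives were no batch term, no sex term, batch 1 or ES batch 2 alone, quantile normalization again, centring on array medians, removal of genes below background, the mean of all probe sets, the replicate number as a block and leaving out each array.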

Additional observations from a re-analysis of the deposited data

Results flagged for a closer look

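Among 40 sets of 1 member in 1 group, 2 held an array far from the rest of its group, and chance gives about 1 in 20 such sets. Ggct in EG 2i line 2 was 6.16, below the 6.28 to 6.30 of the other 3 lines. Wipf3 in EG 2is line 4 was 4.48, below the 4.68 to 4.70 of the other 3, and all of these values lie at array background.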

How the results depend on the processing

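No called difference changed sign under any alternative, and Nod1 and Ggct kept their direction in the EG against ES comparisons under all of them. Without a batch term, Nod1 differed by -1.79, -1.69 and -1.43 for EG 2i, EG 2is and EG FCS against ES lines. With ES arrays of batch 2 alone (chosen after seeing the data), Nod1 differed by -1.22, -1.15 and -1.02 and Ggct by -0.49, -0.55 and -0.37. Leaving out each array gave -2.61 to -2.21 for Nod1 in EG 2i. With the replicate number as a block, the Nod1 difference between ES batches was -1.33 (limma adjusted p = 0.496), with 0 members and 0 genes called. The labels do not say if the numbers pair the arrays, and 2 of 5 ES arrays correlated best with their own number. The block joined EG and ES arrays of a number, so it does not separate batch from line among ES arrays. Without the block, the Nod1 difference between ES batches was -1.19, and -1.34 to -1.02 when each array was left out, with 0 to 1 members called. Members called for EG 2is against FCS were 1, against 2 without a sex term, 3 within batch 1 and 2 above background. For ES 2i against FCS they were 3, against 1 within batch 1. Leaving out each array gave 1 to 4 members for EG 2i, 1 to 2 for EG 2is and 3 to 5 for ES 2i.

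Genes called for EG 2i against ES 2i were 742, against 1757 without a batch term, 201 within batch 1, 471 with the block and 1181 with ES batch 2 alone. For EG 2is against ES 2i they were 9, against 33 without a batch term and 4 without a sex term. For EG FCS against ES FCS they were 2, against 6 without a batch term, 1 within batch 1 and 131 with ES batch 2 alone. For ES 2i against FCS they were 6298, against 2460 within batch 1. For the difference of responses they were 287, against 0 within batch 1, 108 with the block and 604 with ES batch 2 alone. Leaving out each array gave 301 to 872, 1 to 43, 2 to 4 and 110 to 390 genes for the 3 EG against ES comparisons and the difference of responses. The cause of these changes was not tested. Nod1 in EG lines and Wipf3 lie at array background, which limits what their values can show.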
